A study of Mus musculus with 20 samples.

Results

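Gene expression in gonads of (B6x129S1)F1 hybrid embryos was compared with that in gonads of the inbred 129S1/SvImJ strain, using every array whose title names either genotype, 5 and 5 of the 20 arrays of the study. All embryos were XY and were taken at embryonic day 11.5, at 17 to 21 tail somites. Each array carried Cy5-labelled RNA from 1 pair of gonads freed of the mesonephros, amplified from 200 to 450 ng, against a Cy3-labelled reference pool. The pool came from Sox9-ECFP(C57BL/6J) by CD-1 embryos and joined gonads with whole embryos, 4 XY and 3 XX gonad pairs beside 4 XY and 2 XX embryos. The other 10 arrays, 5 of C57BL/6J (B6) and 5 of the reciprocal hybrid (129S1xB6)F1, entered the fit to share its estimate of the spread. They also entered the choice of the probe of each gene. Their levels are given beside single genes, and the F1 was compared with each of these groups as well. An F1 embryo carries 1 autosomal allele of each strain, so each autosomal difference from 129S1/SvImJ is measured with 1 allele in common. The labels do not say which strain was the mother in either cross, and they state that the embryos of a group came from several litters without naming them.

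At this stage the gonad of the mouse is leaving its bipotential state. In XY embryos Sry switches on Sox9 in the supporting cells, and Fgf9 and other signals stabilise the testis pathway against Wnt4 and Rspo1, which promote the ovary. The C57BL/6J background is known to make XY gonads liable to sex reversal, and 129S1/SvImJ is known to resist it, which is the question behind the crosses. In an F1 hybrid, a gene whose level follows its own allele is known to lie between the parents when both alleles are read at their parental rates.

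The level of a gene is the log2 ratio of the Cy5 signal over the Cy3 signal, so a level of 0 means the level of the pool. A difference of 1 is a 2-fold change, and ± after a difference is its standard error (SE). Markers of gonadal somatic cells lay above the pool in both groups, with Wt1 at 4.38 ± 0.31 (SD, n = 5) in F1 and 4.07 in 129S1/SvImJ, and Lhx9 at 2.80 and 3.22. The neuronal gene Stmn2 lay far below it, at -4.01 and -3.84, as did Afp of liver, at -6.17 and -6.55. The Y-linked genes Ddx3y, Kdm5d and Eif2s3y were well above background on all 10 arrays, and none of 7 Y-linked genes tested was called. The single probe named for Xist, the RNA of the inactive X, lay between -0.25 and 0.32 on the 10 arrays although the pool holds XX tissue, so it gave no separation of the sexes here. The median net Cy5 signal was 96.0 to 151.5 intensity units on the F1 arrays and 171.6 to 207.3 on the 129S1/SvImJ arrays, without overlap, and its part in the differences was not tested. Arrays C4 and E1 of the F1 shared slide 5 with no 129S1/SvImJ array, arrays A3 and D4 of 129S1/SvImJ shared slide 1 with no F1 array, and slides 2, 3 and 4 held both groups.

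Of 23749 genes tested, 255 differed between the F1 and 129S1/SvImJ (1.07%), 160 higher in F1 (0.674%) and 95 lower (0.4%). The largest differences were in genes outside the sex pathways. Trim12a, from the tripartite motif family, Ptprg, a receptor tyrosine phosphatase, and Kctd14, a protein with a potassium channel tetramerisation domain, rose. The rise of Ptprg was seen on its brighter probe and not on the other. Lancl3, an X-linked member of the LanC-like family, and Ppp4r4, a regulatory subunit of protein phosphatase 4, fell. The change was at least 2-fold for 80 of the genes that rose and 22 of those that fell, and the median size was 1.00 for the former and 0.74 for the latter. The smallest difference called was 0.32. The median difference over all genes tested was 0.03. In gonad tissue taken whole, a lower level in all cells and fewer cells that express the gene cannot be told apart.

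The arrays of F1 and 129S1/SvImJ did not overlap for 228 of the 255 called genes, against 3.02% of all genes tested. The counts moved with the arrays in the fit and with the treatment of background. With normexp correction, 114 genes were called higher and 73 lower. With slide as a block, 152 genes were called higher and 40 lower, and 132 of the 255 were among them. Without the arrays of slide 5, 99 were called higher and 33 lower. Leaving out C3 gave 52 lower calls, C4 54, F2 53, A3 56, D4 55 and G3 54. Without background subtraction, 123 genes were called higher and 127 lower, so that 49.2% of the calls were higher in place of 62.7%.

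**Figure D1:**
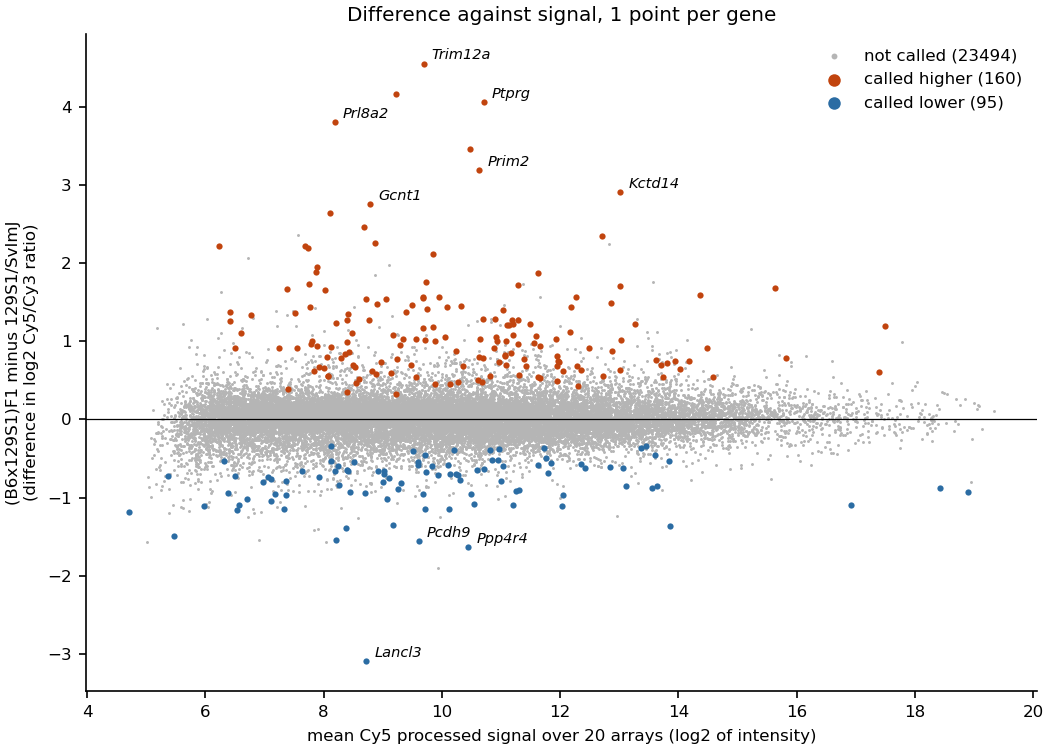
Difference between (B6x129S1)F1 and 129S1/SvImJ in log2 Cy5/Cy3 ratio (y axis) against the mean log2 Cy5 processed intensity over 20 arrays (x axis), 1 point per gene. The 160 genes called higher and the 95 called lower at an adjusted p under 0.05 are coloured, and 9 of the genes described in the text are labelled. Called genes lie at all signal strengths, with 22 higher and 20 lower among the 5938 dimmest genes and 41 higher and 22 lower among the 5937 brightest.

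Kctd14 gave one of the largest increases on a bright probe. It had no other detected probe, so agreement between probes could not be checked. Its level was 5.53, 5.22, 6.02, 6.05 and 5.75 on the F1 arrays and 1.86, 3.43, 2.97, 2.73 and 3.05 on the 129S1/SvImJ arrays. Every F1 array lay well above every 129S1/SvImJ array. The difference was 2.91 ± 0.23, or 7.50-fold (adjusted p = 1.92e-07), and it was between 2.29 and 3.49 over the alternatives tried. The gene lies on chromosome 7, and its F1 mean of 5.71 ± 0.35 (SD) stood close to the means of C57BL/6J, 5.89 ± 0.32, and of the reciprocal F1, 5.74 ± 0.22. The difference between F1 and C57BL/6J was -0.18 (adjusted p = 0.818).

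The TRIM genes of chromosome 7, a cluster that holds antiviral factors, gave 2 increases among 9 genes tested and no decrease. Over all genes tested, 0.674% were called higher and 0.4% lower. Trim12a had levels of 2.23, 1.58, 1.79, 1.63 and 1.52 in F1 and -2.70, -3.15, -2.28, -2.74 and -3.14 in 129S1/SvImJ. The groups were far apart, with a difference of 4.55 ± 0.22 (23.5-fold, adjusted p = 7.34e-11). On 2 of the 5 arrays of 129S1/SvImJ its signal was not well above background. The size therefore depends on the treatment of background, and was 2.54 with normexp correction and 1.11 without background subtraction. A further Trim12a probe gave 1.91 ± 0.24. Trim6 rose by 0.87 ± 0.10 (adjusted p = 4.68e-05), from 0.10 ± 0.08 (SD) in 129S1/SvImJ to 0.97 ± 0.17 in F1, and its other 4 probes ranged from 0.02 to 0.88. The remaining 7 genes tested, among them Trim34a at 0.18 and Trim30a at -0.05, were not called, and the median of the 9 was 0.11.

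For several of the largest increases, 2 probes of the gene disagreed. Ptprg differed by 4.06 ± 0.13 on its brighter probe (16.7-fold, adjusted p = 1.45e-13) and by 0.12 ± 0.26 on the other. Prim2, the large subunit of DNA primase, gave 3.19 ± 0.12 and -0.47 ± 0.20. Usp53, of the ubiquitin peptidase family, gave 2.12 ± 0.13 and 0.08 ± 0.19. Rrp7a, which acts in ribosomal RNA processing, gave 1.87 and 0.19, and Zbtb8os, a cofactor of tRNA ligation, gave 1.76 and 0.07. In each of these 5 genes the probe with the large difference had levels in 129S1/SvImJ below those of all other groups, and the second probe did not follow it. The middle 30 bases of the 60-base probes (bases 16 to 45, as the array files write them) are shown for 3 of these genes, because the increase rests on which probe is read.
Ptprg, difference 4.06: gcttagtttggtggttttcctaaactttat
Ptprg, difference 0.12: tggagtattcacagacattgaacaatacca
Prim2, difference 3.19: ctattgaaactgttaaaatcctcaagcagc
Prim2, difference -0.47: atagttttcctctctattcattttatatga
Usp53, difference 2.12: ctggaacagagttatggattgaaaacagcc
Usp53, difference 0.08: tctcagttgatagttgcatgactgatacct
The stretches of a pair are different sequence, so the probes read different places of the gene. No genome was at hand to place them in an exon or to look for strain variants under them.

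The values per array show how sharp the contrast was. The first Ptprg probe read 0.49, 0.71, 0.33, 0.67 and 0.44 in F1 and -3.60, -3.67, -3.14, -3.89 and -3.35 in 129S1/SvImJ. The second read 0.96, 0.52, 0.25, 0.75 and -0.04 in F1 and -0.31, 0.52, -0.22, 0.76 and 1.11 in 129S1/SvImJ. The groups were separate on the first probe and mixed on the second. With the mean over its detected probes in place of the brightest, the differences of Ptprg, Prim2, Usp53, Rrp7a and Zbtb8os shrank by more than 1.5-fold and all 5 kept their call. Gcnt1, an enzyme that branches O-linked sugar chains, lost its call under that setting. It differed by 2.75 ± 0.29 on the brightest probe and by -0.41 and -0.33 on the other 2.

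Agreement among probes could be checked for 88 of the 255 called genes, which have another detected probe. In 67 of them every other probe pointed the same way, and in 29 each of those also passed an unadjusted p of 0.05. In 21 another probe pointed the opposite way, in no case with a call of its own. The remaining called genes have no other detected probe, among them Kctd14, Lancl3, Mageb4, Gng13, Ddx4, Cbr1 and Catsper2.

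**Figure D2:**
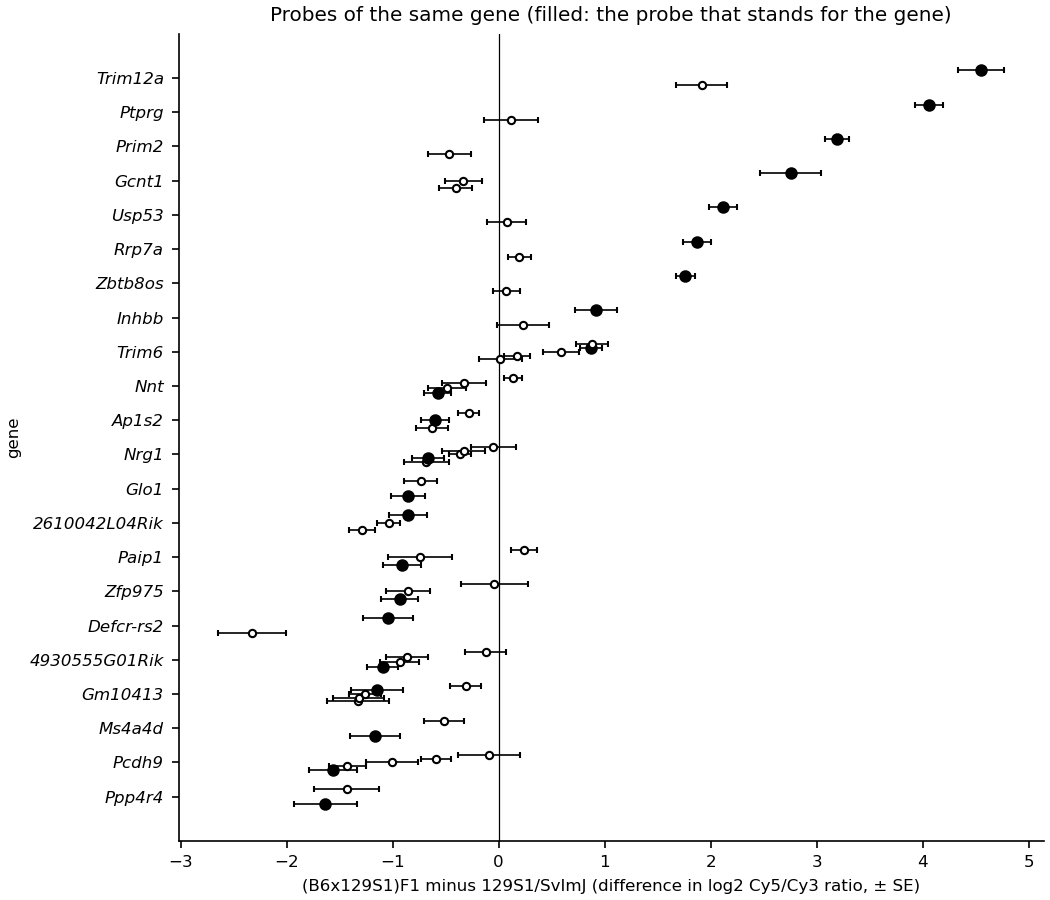
Difference between (B6x129S1)F1 and 129S1/SvImJ in log2 Cy5/Cy3 ratio (x axis, ± SE) for each detected probe of the named called genes with more than 1 probe (y axis, sorted by the difference). Filled points are the brightest probe, which stands for the gene, and open points the others. Ppp4r4, Glo1 and 2610042L04Rik have all their probes on one side, while Ptprg, Prim2, Gcnt1, Usp53, Rrp7a and Zbtb8os have an open point near or below 0.

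Further increases had a single probe or a low signal. Slc7a2, a transporter of arginine and lysine, read 1.89, 2.11, 1.70, 2.56 and 1.45 in F1 and -0.55, -0.33, -0.33, 0.19 and -0.25 in 129S1/SvImJ. It rose by 2.20 ± 0.26 (4.58-fold, adjusted p = 5.08e-05), and was well above background on 2 of the 5 129S1/SvImJ arrays. Without background subtraction its difference was 0.19 and the call was lost (adjusted p = 0.355, from 3.33e-05 over the alternatives). Zfp125, a zinc finger gene, rose by 1.73 ± 0.29 (adjusted p = 0.00264) and lost its call in 2 of 24 alternatives, with normexp correction and on the slides that held both groups. Prol1, which encodes a proline-rich secreted protein, differed by 1.89 ± 0.45 (adjusted p = 0.0451) and lost its call in 16 of 23 alternatives.

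Prl8a2, which encodes a prolactin-like hormone of the decidua and placenta, read 4.74, 4.38, 4.40, 2.98 and 6.25 in F1. It read 1.14, 0.09, 0.78, 1.20 and 0.50 in 129S1/SvImJ. All F1 arrays were higher, with a wide spread among them. The difference was 3.81 ± 0.60 (14.0-fold, adjusted p = 0.00149), and the call was lost with normexp correction (2.20, adjusted p = 0.0593) and without background subtraction (0.92, adjusted p = 0.216). Its signal was well above background on 4 of the 5 129S1/SvImJ arrays. The F1 mean was 4.55, beside 4.54 in C57BL/6J but 2.14 in the reciprocal F1. The crosses differed by 2.4, without a call (adjusted p = 0.985). Looked up after the value of Prl8a2 was seen, the prolactin-like gene family of chromosome 13 had 17 tested genes, all of them above 0. Over all genes tested, 13345 of 23749 were above 0. Of the 17, 3 were called higher (Prl8a2, Prl2b1 at 1.00 ± 0.18 and Prl7d1 at 0.47 ± 0.10), against 0.674% of all genes tested. The median of the family was 0.47, against 0.03. Probes of 1 family may share signal, so the 17 are not counted as independent. The mean level of the 17 genes, Prl8a2 included, was 1.05 to 1.37 on the F1 arrays and 0.18 to 0.70 on the 129S1/SvImJ arrays. Prl2b1 had means of 1.16 in F1, 0.79 in C57BL/6J, 0.28 in the reciprocal F1 and 0.16 in 129S1/SvImJ. Those of Prl7d1 were 0.64, 0.44, 0.24 and 0.17, and neither gene was called between the crosses. The part of other tissue in this was not tested.

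The genes lower in F1 were led, on the autosomes, by Ppp4r4. Its levels were 0.77, 0.76, 1.16, 1.45 and 0.52 in F1 and 2.90, 2.21, 1.56, 2.25 and 3.92 in 129S1/SvImJ. The groups lay close, with the lowest 129S1/SvImJ array just above the highest of F1. Ppp4r4 fell by 1.64 ± 0.30 (3.11-fold, adjusted p = 0.00556), and its other probe gave -1.43 ± 0.31. It lost the call in 2 of 24 alternatives, with only the 10 arrays compared in the fit and on the slides that held both groups, and its adjusted p ran from 6.62e-04 to 0.155. The F1 mean, 0.93, lay between C57BL/6J at -0.16 and 129S1/SvImJ at 2.57.

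Pcdh9, a protocadherin of cell adhesion on chromosome 14, read -1.91, -1.63, -1.39, -1.59 and -1.22 in F1 and 0.48, -0.30, -0.40, -0.37 and 0.67 in 129S1/SvImJ. It fell by 1.56 ± 0.23 (adjusted p = 6.43e-04), and all its other 4 probes were below 0, from -1.43 to -0.09, the latter above background on 2 of the 5 F1 arrays. Its call was lost on the slides that held both groups, and its difference over the alternatives was -1.67 to -0.72. The enzymes among the decreases were Kyat3, a kynurenine aminotransferase, at -1.37 ± 0.30 (adjusted p = 0.0242) and Glo1, the glyoxalase that clears methylglyoxal, at -0.85 ± 0.16 (adjusted p = 0.00761). Kyat3 lost its call in 10 of 24 alternatives and Glo1 in 4. The second Glo1 probe gave -0.74 ± 0.15.

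Catsper2, a subunit of the calcium channel of sperm, read 0.57, 0.51, 0.50, 0.64 and 0.59 in F1 and 1.66, 1.14, 1.14, 1.48 and 1.47 in 129S1/SvImJ. The F1 arrays were nearly alike and all lower. It fell by 0.81 ± 0.12 (1.76-fold, adjusted p = 6.21e-04), and lost its call only on the slides that held both groups. Paip1, which binds the poly(A)-binding protein, fell by 0.91 ± 0.18 (adjusted p = 0.0113), although 1 of its other 2 probes gave 0.24, and lost its call in 5 of 24 alternatives. Zfp975, a zinc finger gene, fell by 0.93 ± 0.18 (adjusted p = 0.00807), with other probes at -0.86 and -0.04, and lost its call in 4.

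The remaining decreases by the naming rule held less well. The serpins Serpina1f and Serpini1, which inhibit serine proteases, differed by -1.11 ± 0.26 and -0.96 ± 0.23, with adjusted p of 0.048 and 0.0483. Serpina1f, whose signal cleared background on 2 of the 5 F1 arrays, lost its call in 15 of 23 alternatives and Serpini1 in 17 of 24. Ms4a4d, a membrane protein, differed by -1.17 ± 0.24 and lost its call in 6 of 23. Its signal cleared background on 3 of the 5 F1 arrays. The defensin-related Defcr-rs2 differed by -1.04 ± 0.24 on its brighter probe and lost its call in 14 of 24. Its other probe was also lower in F1, but cleared background on 1 of the 5 F1 arrays, so its size is not given.

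Chromosome 14 had the highest share of called genes, 17 of 644 (2.64%), followed by chromosome 13 with 2.1%. It also held the only run of at least 3 neighbouring tested genes called in the same direction, in the gene order of assembly GRCm38.p6. The run was made of Gm10413, 2610042L04Rik, 4930555G01Rik and Gm3696, predicted genes whose family has similar copies, so that their probes may share signal and the 4 are not independent. Gm3696 read 0.54, 0.47, 0.53, 0.39 and 0.41 in F1 and 1.25, 1.45, 1.22, 1.41 and 1.83 in 129S1/SvImJ, and fell by 0.96 ± 0.13 (adjusted p = 2.36e-04). 4930555G01Rik fell by 1.09 ± 0.14 (adjusted p = 2.11e-04), and kept its call in all alternatives. Gm10413 and 2610042L04Rik fell by 1.15 ± 0.24 and 0.86 ± 0.18, with calls lost in 5 and 6 of 24 alternatives. In C57BL/6J the 4 genes had means of -2.11 to -0.96, below the F1 means of -0.03 to 0.47, and the 129S1/SvImJ means of 0.83 to 1.43 were the highest.

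An XY embryo has 1 X, from its mother, so its X-linked alleles come from 1 strain. Calls were made for 3 of 629 genes on the X (0.477%) and for 178 of 17418 on autosomes (1.02%). Lancl3 read 1.10, 1.82, 1.55, 1.97 and 1.64 in F1 and 4.87, 4.18, 5.85, 4.63 and 4.02 in 129S1/SvImJ. All F1 arrays were far below, and Lancl3 fell by 3.09 ± 0.34 (8.53-fold, adjusted p = 2.17e-05). The call held in all 24 alternatives, with a difference of -3.50 to -0.97, the latter without background subtraction. Its mean was 1.62 ± 0.33 (SD) in F1 and 1.13 ± 0.58 in C57BL/6J, but 4.71 ± 0.72 in 129S1/SvImJ and 4.49 ± 0.65 in the reciprocal F1.

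Lancl3 was 1 of 2 genes in which the crosses themselves differed (0.00842% of genes tested), by -2.88 ± 0.34 between (B6x129S1)F1 and (129S1xB6)F1 (adjusted p = 8.71e-04). The other was the transcript BC022654, singled out here after its value was seen, at 0.95 ± 0.11, so that 1 gene was higher and 1 lower (0.00421% each). Both calls were lost with normexp correction, where the adjusted p of Lancl3 was 0.176, and on the slides with both groups or without slide 5, where it gave -2.82 with adjusted p of 0.93 and 0.483. Over the alternatives the adjusted p of Lancl3 for the cross difference ran down to 3.06e-04. Between the crosses, 875 of 23749 genes passed an unadjusted p of 0.05, a smaller share than that threshold would give by chance. The other X-linked calls were Mageb4 and Ap1s2. Mageb4, of the melanoma antigen family, read 4.82, 4.80, 5.47, 4.85 and 4.60 in F1 and 2.92, 3.76, 3.23, 3.93 and 3.03 in 129S1/SvImJ. It rose by 1.53 ± 0.23 (2.90-fold, adjusted p = 7.03e-04) and lost its call in 3 of 24 alternatives, among them without background subtraction (0.30). Ap1s2, a subunit of a clathrin adaptor, differed by -0.60 ± 0.13 (adjusted p = 0.0279), with its other probes at -0.63 and -0.28, and lost its call in 14 of 24.

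For most called genes the F1 mean lay between the parents. Against C57BL/6J, 415 genes differed from the F1 (1.75%), 213 higher in F1 (0.897%) and 202 lower (0.851%), in a comparison that shares the F1 arrays. Among the 160 genes called higher, the F1 mean stood between those of 129S1/SvImJ and C57BL/6J in 124 and above both in 36. Among the 95 called lower it stood between them in 81 and below both in 14. These counts describe genes already chosen for their difference from 129S1/SvImJ. Every F1 array lay beyond every array of both strains for 4 genes called higher (Mageb4, 2610203C22Rik, AK043081 and AB069910) and 1 called lower (Ap1s2). Mageb4 was the one of these that also differed from C57BL/6J, by 1.95 (adjusted p = 4.21e-05), with a C57BL/6J mean of 2.96 ± 0.44 (SD).

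**Figure D3:**
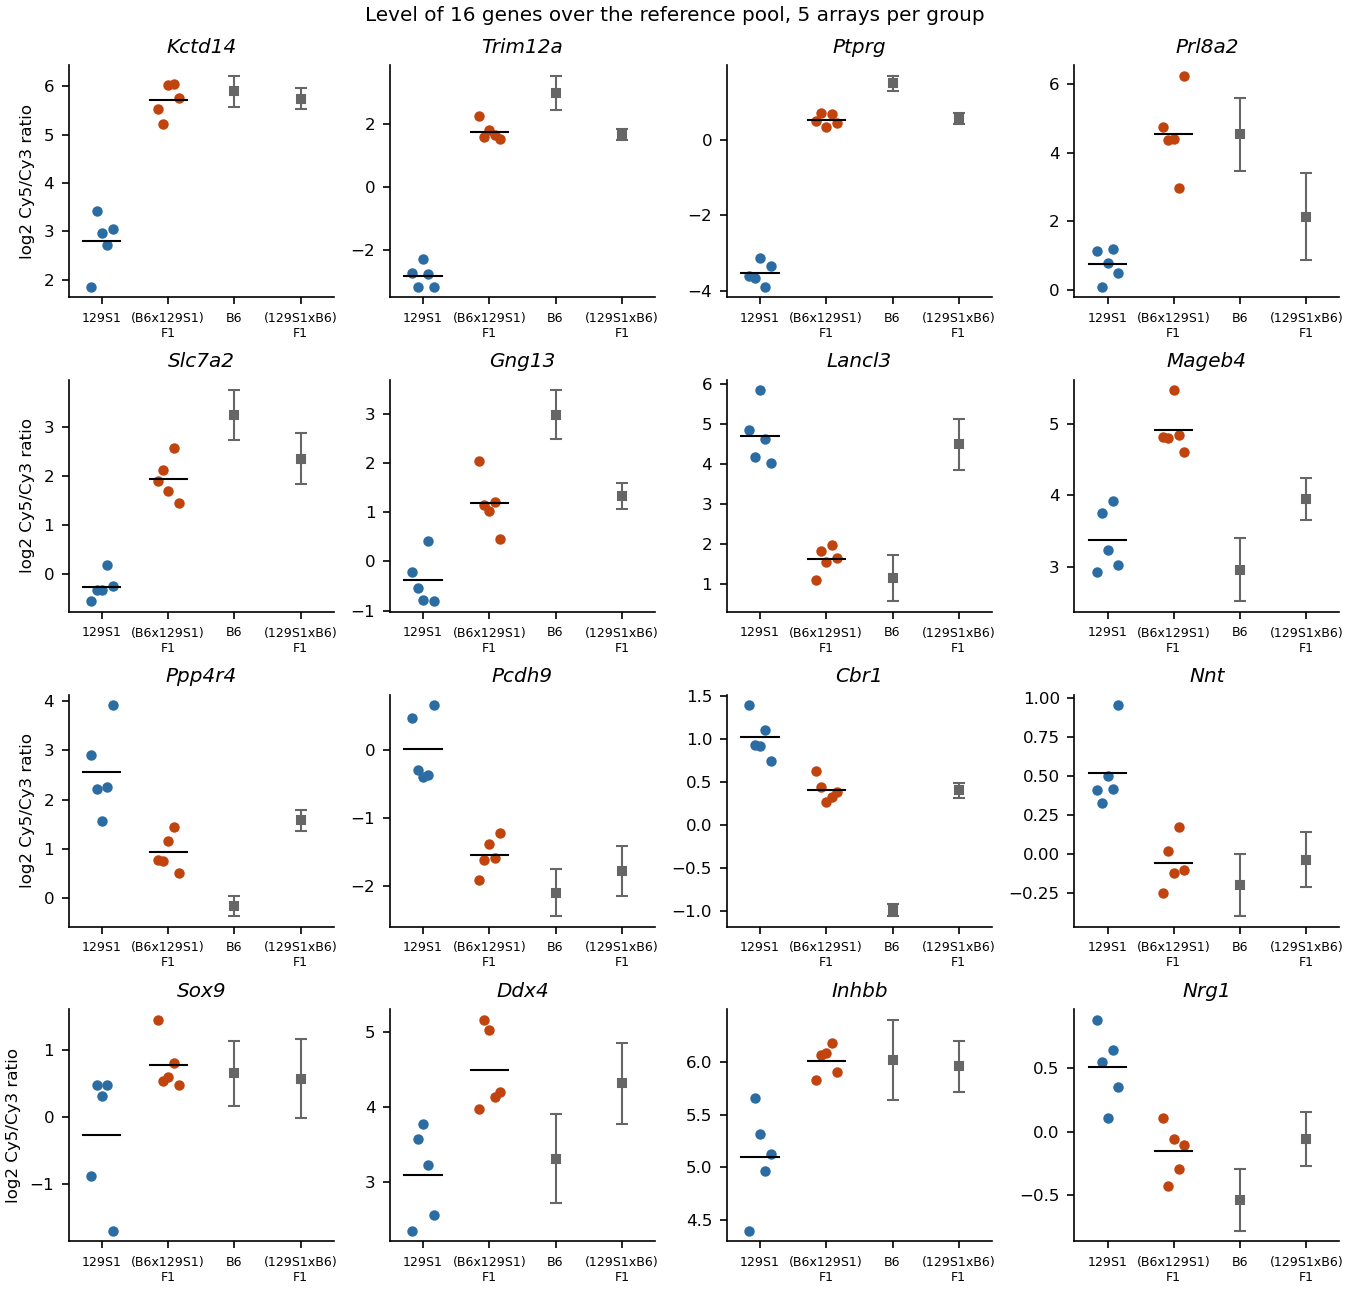
Level over the reference pool (log2 Cy5/Cy3 ratio, y axis) of 16 genes in the 4 groups (x axis). Points are single arrays of 129S1/SvImJ (blue) and (B6x129S1)F1 (orange) with a line at the mean, and grey squares with bars are the mean ± SD of 5 arrays of C57BL/6J (B6) and of the reciprocal F1. The F1 points stand near B6 for Kctd14 and Lancl3, between the strains for Trim12a, Gng13 and Cbr1, and above both for Mageb4.

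The testis pathway list gave 1 called gene among 27 tested (1.07% of all genes tested were called), and that gene was lower. Nrg1, a ligand of ERBB receptors, read 0.11, -0.43, -0.06, -0.30 and -0.10 in F1 and 0.88, 0.55, 0.11, 0.65 and 0.35 in 129S1/SvImJ. It differed by -0.66 ± 0.15 (adjusted p = 0.0328), its other 4 probes ranged from -0.68 to -0.05, and it lost its call in 13 of 24 alternatives. The switch gene Sry was not tested, since its probe was well above background on 3 of 5 arrays in each group. Its levels were 0.00 to 1.03 in F1 and 0.40 to 1.20 in 129S1/SvImJ.

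Most testis genes had positive differences without passing the test. Of the 27, 19 were above 0 and the median was 0.40, beside 13345 of 23749 genes above 0 and a median of 0.03 overall. The median of the list was 0.12 without background subtraction and 0.52 at its highest over the alternatives. At an unadjusted p of 0.05, 10 of the 27 were higher and 1 was lower, beside 1801 higher and 1150 lower of all 23749 genes tested. Sox9, which drives supporting cells to become Sertoli cells, read 1.45, 0.54, 0.60, 0.81 and 0.48 in F1 and -0.88, 0.48, 0.32, 0.47 and -1.69 in 129S1/SvImJ. The low values of the latter came from arrays A3 and G3. The Sox9 difference was 1.04 ± 0.38 (adjusted p = 0.268), and 0.68 without G3.

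The same arrays were low for the list as a whole. The mean level of the 27 genes was 0.61 on A3 and 0.45 on G3, against 1.19 to 1.39 on the other 3 arrays of 129S1/SvImJ and 1.23 to 1.71 on the F1 arrays. Among products of Sertoli cells, the hedgehog ligand Dhh differed by 2.25 ± 0.84 (adjusted p = 0.281) with an SD of 2.13 in 129S1/SvImJ, the protease inhibitor Cst9 by 1.76 ± 0.49 (adjusted p = 0.109), and Ptgds, a prostaglandin D synthase, by 1.20 ± 0.57 (adjusted p = 0.396). Hsd17b3, the enzyme that makes testosterone, differed by 1.43 ± 0.43 (adjusted p = 0.148). The signal Fgf9 gave 0.65 ± 0.37, Amh, the hormone that removes the Müllerian ducts, 0.59 ± 0.29, and the transcription factor Dmrt1 0.48 ± 0.24, none of them called. Gadd45g, which acts upstream of Sry, gave 0.07 ± 0.13 (95% interval -0.19 to 0.34).

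The ovarian pathway list had 1 gene called of 18 tested (1.07% of all genes tested were called) and a median of -0.10. Gng13, a G protein gamma subunit, read 2.05, 1.14, 1.03, 1.22 and 0.45 in F1 and -0.21, -0.54, -0.78, 0.42 and -0.81 in 129S1/SvImJ. The highest 129S1/SvImJ array fell just short of the lowest F1 array. Gng13 rose by 1.56 ± 0.28 (2.95-fold, adjusted p = 0.00503), and lost its call in 3 of 24 alternatives, at 0.46 without background subtraction (adjusted p = 0.209). Its F1 mean of 1.18 was below C57BL/6J, at 2.99, by 1.81 (adjusted p = 9.6e-04). The ovary-promoting signals Wnt4 and Rspo1 gave -0.21 ± 0.23 and -0.09 ± 0.19, the transcription factor Foxl2 gave 0.19 ± 0.09, and the activin antagonist Fst gave 0.01 ± 0.28, none of them called. None of the 20 bipotential gonad genes was called either, with Wt1 at 0.31 ± 0.17 and Nr5a1, the regulator of steroidogenic genes, at -0.30 ± 0.34.

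Signalling lists held 1 call, and 1.07% of all genes tested were called. Inhbb, the beta B subunit of activin and inhibin, read 5.83, 6.07, 6.08, 6.17 and 5.91 in F1 and 4.40, 5.66, 5.32, 4.97 and 5.12 in 129S1/SvImJ. The groups did not overlap. The difference was 0.92 ± 0.20 (adjusted p = 0.0242), while its other probe gave 0.23 ± 0.24. It lost its call in 14 of 24 alternatives, with a difference of 0.58 with slide as a block and 0.15 after scaling between arrays, and an adjusted p of 0.0079 to 0.92. The other 18 activin, inhibin and BMP genes were not called, nor were 11 FGF-ERK targets (median 0.27), 16 WNT targets (0.08), 23 WNT ligands, receptors and modulators (-0.09), 18 retinoic acid genes (-0.03) or 12 hedgehog and interstitial genes (0.08). Among 13 steroidogenic genes, which the fetal adrenal also expresses, Star, the cholesterol carrier, gave -0.82 ± 0.26 and Hsd3b1 -0.51 ± 0.19, without a call.

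Of the germ cell genes, 26 were tested, 21 lay above 0 and 1 was called. Among all genes tested, 13345 of 23749 lay above 0 and 1.07% were called. Ddx4, the RNA helicase also known as Vasa, read 3.98, 5.17, 5.03, 4.13 and 4.20 in F1 and 2.35, 3.58, 3.78, 3.23 and 2.56 in 129S1/SvImJ. The groups did not overlap. The difference was 1.40 ± 0.34 (2.65-fold) with an adjusted p of 0.0495, at the edge of the threshold, and the call was lost in 17 of 24 alternatives (adjusted p from 0.0169 to 0.33). With scaling between arrays it was 0.89. Tex19.1, which acts against transposons, gave 0.86 ± 0.23 (adjusted p = 0.0998), and Dppa3, also called Stella, 0.49 ± 0.21. Dazl, an RNA-binding protein, gave -0.01 ± 0.31 and Pou5f1, the pluripotency factor Oct4, -0.30 ± 0.33. The median of the list was 0.32, and it was 0.18 without slide 5, 0.08 without background subtraction and 0.05 with scaling between arrays. The mean level of the 26 genes was 1.98 to 2.53 on the F1 arrays and 1.54 to 2.12 on those of 129S1/SvImJ, which overlap. None of 10 meiosis genes was called, with the cohesin Rec8 at 0.59 ± 0.22. Sycp3, of the synaptonemal complex, gave -0.68 ± 0.24, with a signal above background on 1 of the 5 F1 arrays and 4 of the 5 arrays of 129S1/SvImJ, which limits that size.

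**Figure D4:**
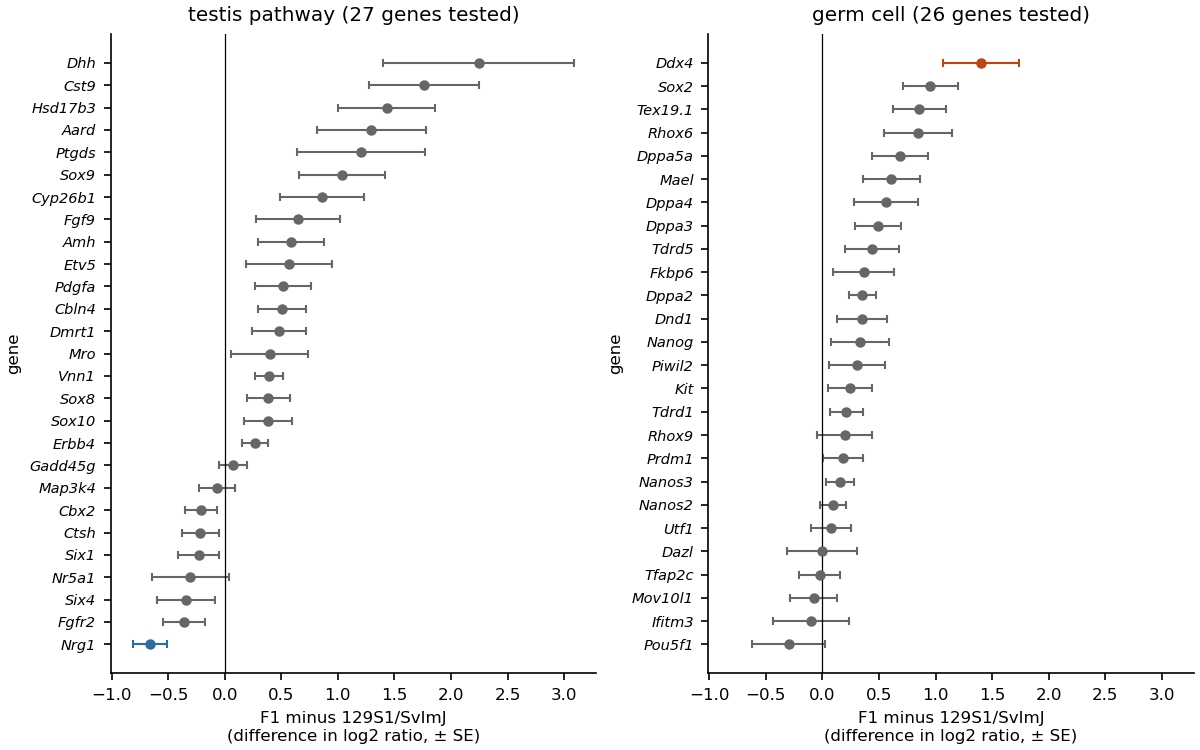
Difference between (B6x129S1)F1 and 129S1/SvImJ in log2 Cy5/Cy3 ratio (x axis, ± SE) for the 27 testis pathway genes (left) and 26 germ cell genes (right) tested, sorted by the difference. Nrg1 (blue) is the testis gene called lower and Ddx4 (orange) the germ cell gene called higher, and grey genes did not pass the test. Above 0 lie 19 of 27 and 21 of 26, beside 13345 of 23749 of all genes tested.

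A detoxifying enzyme and a label check were the other called members of the lists, both lower in F1. Cbr1, a carbonyl reductase, read 0.63, 0.44, 0.27, 0.32 and 0.38 in F1 and 1.39, 0.93, 0.92, 1.11 and 0.75 in 129S1/SvImJ. All F1 arrays were lower. It fell by 0.61 ± 0.10 (1.52-fold, adjusted p = 0.00296) and lost its call in 4 of 24 alternatives, at -0.48 with slide as a block (adjusted p = 0.0588, from 4.28e-04 to 0.224 over the alternatives). Its F1 mean, 0.41 ± 0.14 (SD), stood above that of C57BL/6J, -0.99 ± 0.07 (adjusted p of that difference = 1.88e-07). The other 20 xenobiotic and glutathione enzymes tested were not called, beside 1.07% called of all genes tested.

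Nnt, the mitochondrial transhydrogenase, in which C57BL/6J is known to carry a deletion, read -0.25, 0.02, -0.12, 0.17 and -0.10 in F1 and 0.41, 0.33, 0.50, 0.42 and 0.95 in 129S1/SvImJ. All F1 arrays were lower, by a mean of 0.58 ± 0.13 (adjusted p = 0.0278). The other 3 probes gave -0.48, -0.33 and 0.14, and the call was lost in 11 of 24 alternatives. Where these probes lie relative to the deletion is not known here. The other label checks, Xist, Ren2 and Disc1, gave 0.15 ± 0.11, -0.02 ± 0.33 and -0.06 ± 0.10.

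Lists of other cell types gave no call. Over all genes tested 1.07% were called, so lists this short cannot be told from all genes by a lack of calls. The median difference was -0.10 for 16 endothelial genes, -0.04 for 16 macrophage genes, 0.04 for 13 erythroid genes, 0.13 for 16 genes of the mesonephros and duct, and 0.06 for 15 genes of limb, body wall and other embryo tissue. In each, the range of the mean level over the F1 arrays overlapped that over the 129S1/SvImJ arrays. Erythroid genes, for example, averaged -0.63 to 0.32 in F1 and -0.57 to 0.19 in 129S1/SvImJ.

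Imprinted genes, read from 1 parental allele, had 28 of 37 members below 0 and the lowest median of the lists, -0.16, but none was called. Over all genes tested, 10404 of 23749 were below 0 and 1.07% were called, so few calls would be seen in a list of any kind here. The mean level of the 37 genes was -0.35 to -0.09 in F1 and -0.16 to 0.10 in 129S1/SvImJ. Inpp5f gave -0.58 ± 0.17 (adjusted p = 0.143), Zim1 -0.75 ± 0.28, the growth inhibitor Cdkn1c -0.59 ± 0.26 and Phlda2, which restrains placental growth, 0.72 ± 0.30. The growth factor Igf2 gave -0.29 ± 0.20 and H19 -0.32 ± 0.24. None of 27 interferon-induced genes was called, among them Gbp2, a guanylate-binding protein, at -0.82 ± 0.28. Nor was any of 31 oxidative phosphorylation genes, 21 cell cycle genes, 20 extracellular matrix genes, 15 hypoxia and glycolysis genes or 18 immediate early and heat shock genes, whose medians lay between -0.10 and 0.04. Array H4 of C57BL/6J averaged 3.52 for the interferon-induced genes, against 0.89 to 1.07 on the other C57BL/6J arrays. It entered the shared estimate of the spread, and its part in the SE of these genes was not tested.

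**Figure D5:**
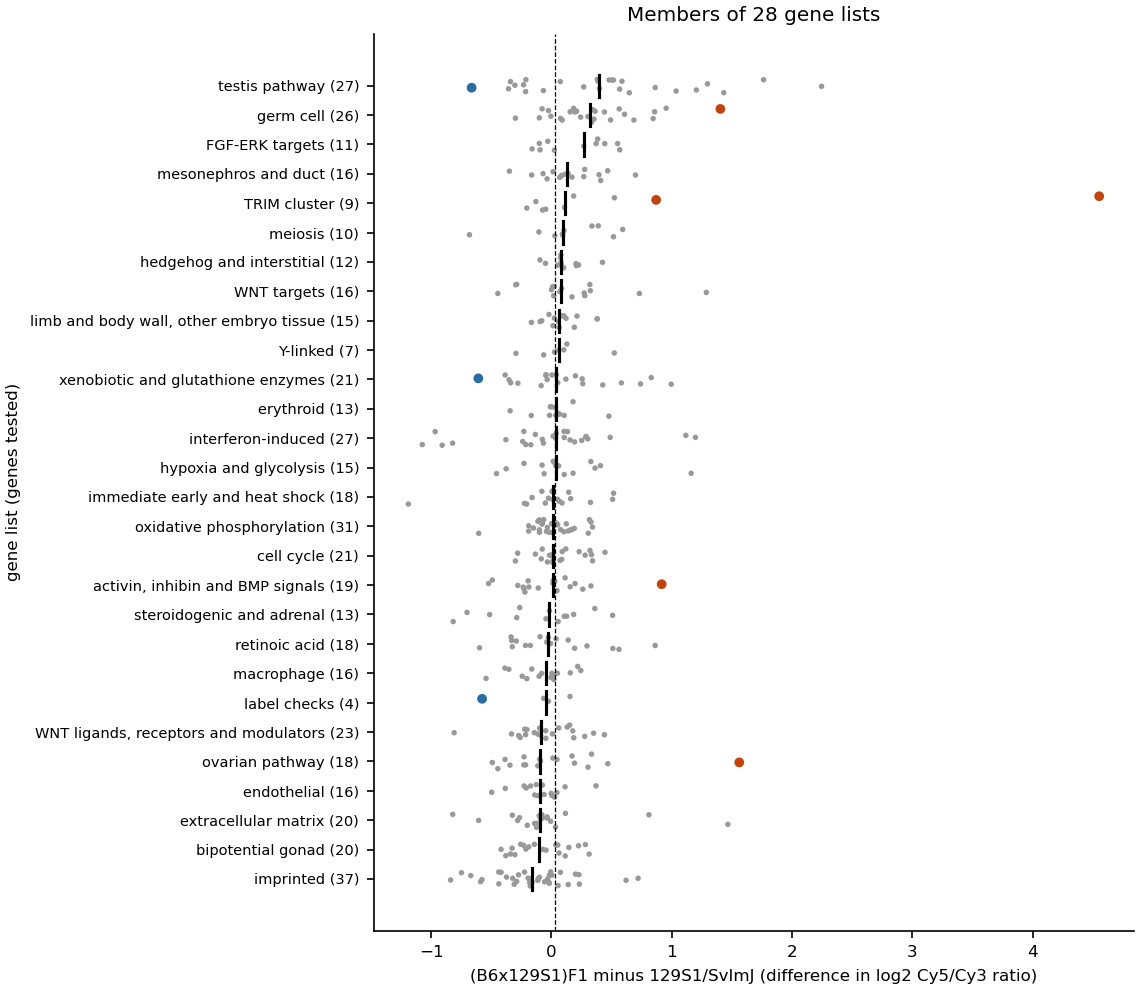
Difference between (B6x129S1)F1 and 129S1/SvImJ in log2 Cy5/Cy3 ratio (x axis) for the tested members of 28 gene lists (y axis, sorted by median, number tested in brackets). Small grey points are genes not called, large orange and blue points genes called higher and lower, black bars the list medians and the dashed line the median of all genes tested, 0.03. Medians run from -0.16 for imprinted genes to 0.40 for the testis pathway.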

How the data were processed

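Each array file holds spot intensity per channel, written by Agilent Feature Extraction 9.1.3.1 per the file headers. The deposited processed intensity is background-subtracted, spatially detrended and dye-normalized, per the file headers. The log2 ratio of red (Cy5) over green (Cy3) processed signals was used for gene probes, and the authors' deposited table of log2 ratios was an alternative. Gonad RNA was Cy5 on all arrays, so no dye swap balances the dyes. Spots of a probe were averaged, and the probe brightest on average stood for a gene. Genes entered the test when Feature Extraction marked the Cy5 signal of that probe as well above background on 4 or more of the 5 arrays of either group. Names came from the accession, symbol or synonym through the gene table of GRCm38.p6 (22951, 6659 and 3109 of 41174 probes), else from the file (8455).

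A model with 4 group means was fitted to 20 arrays with limma (version 3.58.1, in R 4.3.3 with the package data.table at 1.17.8) and eBayes (16 residual and 3.33 prior degrees of freedom). P was adjusted by Benjamini-Hochberg over all 23749 genes, and a gene was called under 0.05. The median SE was 0.148, and the number of arrays limits the precision. P-values cover the spread between arrays only. An earlier analysis of these arrays used normexp correction and loess, which is an alternative here. Other alternatives were no background subtraction, median centring, scaling, the filter, the mean over probes, fewer arrays, slide as a block, the letter of the sample name as a random block, array weights, each array left out, and, added after seeing the data, slide 5 left out. Code was tested on simulated data.

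The members and the 28 gene lists were chosen with earlier results of these data known. The text names the 12 largest differences called in either direction without overlap of the arrays (8 higher and 22 lower accession, clone or predicted-gene names were passed over), called X-linked genes, core sex-determination genes, called members of each list (up to 4, else the 2 of smallest p), Y-linked genes, label checks and runs of at least 3 neighbours.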

Additional observations from a re-analysis of the deposited data

Results flagged for a closer look

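Single arrays stood apart from the other 4 of their group for 11 of the 200 sets of 5 values examined, and chance gives about 1 in 20. In (B6x129S1)F1, array C2 had Glo1 at 0.81 (others 0.44 to 0.50), C4 had Mageb4 at 5.47 (others 4.60 to 4.85) and E1 had the WNT antagonist Dkk1 at 0.35 (others 1.76 to 2.33). Array F2 had the Y-linked Uty at -1.13 (others 0.03 to 0.33), on a probe well above background on 3 of the 5 arrays, and Gm10413 at -0.66 (others 0.10 to 0.31). In 129S1/SvImJ, array G3 had Bmp2 at 1.87 (others 0.07 to 0.32) and Nnt at 0.95 (others 0.33 to 0.50). Array D4 had the endothelial receptor Tie1 at 0.39 (others -0.30 to -0.15) and Emx1 at -0.55 (others -0.24 to -0.14). Array A6 had the epithelial gene Cldn3 at -0.27 (others -1.48 to -1.20), and A3 had the Y-linked Zfy2 at 0.68 (others 0.23 to 0.34). Between the crosses, the difference of Lancl3 from 129S1/SvImJ in (B6x129S1)F1 minus that in (129S1xB6)F1 was -2.88, and the test of this difference itself passed (limma, adjusted p = 8.71e-04).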

How the results depend on the processing

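No named gene that was called changed direction under any of the 24 alternatives. Of 37 such genes, 10 kept the call wherever they were tested (Trim12a, Ptprg, Prim2, Kctd14, Usp53, Rrp7a, Zbtb8os, Lancl3, Trim6 and 4930555G01Rik) and 27 lost it at least once. Every alternative kept the brightest probe, alone or in a mean, so a call that was kept may still rest on that probe. With the mean over probes, 6 of the 37 lost their call. The other probe of Ptprg, Prim2, Usp53, Rrp7a and Zbtb8os gave only 0.12, -0.47, 0.08, 0.19 and 0.07. Of the named genes not called, 3 (Insrr, Sycp3 and Gbp2) were called at least once. The 255 calls became 149 with only the 10 arrays compared (34 lower), 69 on the slides with both groups (62 higher, 7 lower), 164 with the letter as a random block (47 lower), 132 without slide 5 (99 higher, 33 lower) and 172 to 313 with 1 array left out. Lower calls numbered 40 with slide as a block and 52 to 141 with 1 array left out. X-linked calls numbered 5 with slide as a block, 6 with array weights and 2 to 8 with 1 array left out. Calls between the crosses numbered 0 with normexp correction, on the slides with both groups and without slide 5, and 2 to 5 with 1 array left out. Some of these fits hold fewer arrays, and for the others the cause was not tested. Without background subtraction 24 of the 37 differences shrank by more than 1.5-fold, with normexp correction 12, and with the mean over probes 13. The groups share no replicate numbers, so no fit paired by number was made, and arrays were matched only through slide as a block (192 calls). Signal near background limits the sizes of Trim12a, Slc7a2, Prl8a2, Prol1, Ms4a4d, Serpina1f, Sycp3 and the second probe of Defcr-rs2.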

Other observations

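Arrays within a group were about equally alike in both groups, with a median SD per gene of 0.20 in (B6x129S1)F1 and 0.23 in 129S1/SvImJ, beside 0.22 in both C57BL/6J and the reciprocal F1. Of the called genes, 38 of those higher and 46 of those lower have no current gene symbol. Tpbpa, a gene of placental spongiotrophoblast chosen after its value was seen, differed by 1.38 ± 0.58 (adjusted p = 0.34), with means of 2.26 in F1, 0.88 in 129S1/SvImJ, 1.97 in C57BL/6J and 0.31 in the reciprocal F1.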
